A study of Homo sapiens with 8 samples.

Results

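RAB genes encode the largest family of small GTPases that direct membrane traffic. A RAB protein is switched on when an exchange factor loads it with GTP, recruits effectors (tethers, motors and sorting proteins) to the membrane it sits on, and is switched off by a GTPase-activating protein. A lipid anchor added by a geranylgeranyl transferase holds it on the membrane, and GDI proteins extract it again. In B cells this traffic carries surface receptors, antigen and secreted proteins. The microarray probes of RAB genes are described here in Ago2-bound and total RNA. A probe was included if its gene symbol was RAB followed by a number and at most 1 letter, and if its signal was well above background in at least 4 of 8 channels. Genes of RAB-interacting proteins were not included. Of 90 probes so named, for 57 genes, 67 probes for 42 genes met the rule. Over the whole array 22538 of 40981 measured probes, for 10990 named genes, passed this detection limit.

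All RNA came from KM-H2, a Hodgkin lymphoma cell line of B-cell origin with high miR-155 levels. The cells carried either the empty pMSCV-PIG vector (EV) or the same retroviral vector carrying a sponge against miR-155 (miR-155-sp, or sponge cells), whose transcript has binding sites meant to capture miR-155, and GFP+ cells were sorted in both cases. Total RNA (T) and RNA pulled down with an antibody against Argonaute 2 (Ago2-IP, or IP), the protein that miRNAs guide to their target mRNAs, were hybridized from each cell population to 2-color arrays. Each of the 4 RNA samples was labelled with Cy3 and with Cy5. The 2 labellings are technical, so there was 1 sample per group and differences between groups could not be tested, and both values are given to show the technical spread. An array held IP and T of 1 cell population, and the second array of the pair had the dyes exchanged, so each IP/T ratio exists in 2 dye orientations (IP in Cy5, and IP in Cy3). The RNA was that of whole cultures, so a change in some of the cells and a smaller change in all of them cannot be told apart.

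The miRNA that the sponge is designed to bind, hsa-miR-155-5p, is shown because the second comparison turns on it. In RefSeq it lies at chr21:25573983-25574006 (GRCh38.p14, plus strand) and reads, 5′ to 3′ with its seed (bases 2 to 8) in capitals:
hsa-miR-155-5p: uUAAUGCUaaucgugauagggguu
Transcript sequences of the RAB genes were not analysed here, so no matches to this seed are given.

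Between 58.9% and 61.9% of gene spots passed as well above background in Cy3 channels, against 38.8% to 43.4% in Cy5 channels. Precision was limited by having 4 arrays. Of 7 genes known from Hodgkin cell lines, 6 (TNFRSF8, FUT4, CCL17, CD74, MIR155HG and IRF4) were well above background in all 8 channels, and CCL22 was so in 0 channels. Of 7 genes known from other cell types, CD14 reached this level in 6 channels and CD3E in 4 on 1 of its 2 probes, and the others stayed below 4. The 2 cell populations differed in their control spots. The 10 spike-in RNAs had a median log2 IP/T of 1.56 in miR-155-sp cells and 0.14 in EV cells, while the genes had -0.19 and -0.18 before quantile normalization. Quantile normalization sets such overall differences aside, so the ratios of genes are relative ones, and the part of this offset in them was not tested.

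Detection divided the family. No probe reached 4 channels for 15 genes, among them the epithelial RAB17 and RAB25, the melanosome-associated RAB32 and RAB38, and RAB3B and RAB27B, which act in regulated exocytosis. The early endosomal RAB4A and RAB31 were also among these 15, with their probes detected in 0 channels. Of the 23 probes of the family below the limit, 22 were well above background in 0 channels. The probe nearest to the limit was that of RAB38, detected in 3 channels with a mean log2 signal of 4.52 in EV total RNA. Just inside the limit lay 10 probes with 4 channels, of which 9 were detected in the 4 Cy3 channels only. Of the 67 member probes, 56 for 35 genes were also within 2-fold between the labellings of every sample, the study's own condition, and are the ones counted below. All 4 RNA samples were well above background in at least 1 labelling for each of these 56 probes, and 42 were so in all 8 channels.

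The 11 member probes outside the 2-fold limit were those of RAB2B, RAB3A, RAB3C, RAB20, RAB30, RAB33B and RAB39A, which had no other retained probe, and 1 further probe each of RAB6A, RAB10, RAB14 and RAB22A. Their labellings differed by more than 2-fold in at least 1 sample. RAB14 probe A_24_P115511, for example, had a log2 signal of 6.77 (Cy3) and 4.01 (Cy5) in the same miR-155-sp IP RNA. Of these 11 probes 8 were at the detection limit of 4 channels.

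The first comparison asks which RAB transcripts were enriched with Ago2, taken as a 2-fold or higher IP/T. RAB12, RAB14, RAB8B, RAB5C, RAB1A, RAB23, RAB21, RAB11A and RAB5B reached this level in EV-transduced cells on at least 1 probe. In all, 14 of the 56 RAB probes (25%) did so, beside 14.8% of all 17912 retained probes, and 14 did so in sponge cells, beside 15.6%. An IP/T of 4 or more was reached by 4 RAB probes in EV-transduced cells (7.14%, beside 5.91% of all retained probes). In sponge cells 5 RAB probes reached it (8.93%, beside 6.31%). At the other end, 6 RAB probes had an IP/T no higher than 0.5 in EV-transduced cells (10.7%, beside 12.9% of all retained probes). In sponge cells 5 did so (8.93%, beside 14.1%). An IP/T above 1 was found for 34 RAB probes in EV-transduced cells (60.7%, beside 39.3%) and for 30 in sponge cells (53.6%, beside 39.2%), and 10 RAB probes (17.9%) reached 2 in both orientations in EV-transduced cells, beside 12.3%. Several of these probes belong to the same gene and are not independent. Averaged by gene, 7 of 35 RAB genes (20.0%) were enriched in EV-transduced cells, beside 15.5% of 9471 named genes. With normexp background correction the enriched RAB probes in EV-transduced cells fell to 8 of 64 (loess and Aquantile, 5.99% of all probes) or 9 of 66 (quantile, 6.64%). The depleted ones fell to 0 (1.65% of all probes) or 1 (2.63%), in the same order. RAB5B, RAB21, RAB23 and RAB8B A_23_P37535 were below an IP/T of 2 in both of these settings, and RAB5C A_23_P107214 in the second. The 2 RAB12 probes kept the highest IP/T but left the count under loess and Aquantile because their labellings then differed by more than 2-fold.

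The median log2 IP/T of the RAB probes was 0.18 in EV-transduced cells and 0.10 in sponge cells, beside -0.24 and -0.26 for all retained probes. In EV-transduced cells the RAB probes ran from -1.43 to 3.48, and 28 of them lay between -0.5 and 0.5. Between the cell populations, whose samples are separate, log2 IP/T correlated at r = 0.97 over the 56 probes, beside 0.96 over all retained probes, which share arrays and genes and are not replicates. Of the 14 probes enriched in EV-transduced cells 13 were enriched in sponge cells (92.9%, beside 90.7% of all enriched probes), and 9 probes, of RAB12, RAB14, RAB1A, RAB23, RAB5C and RAB8B, were enriched on all 4 arrays (16.1%, beside 11%).

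**Figure D1:**
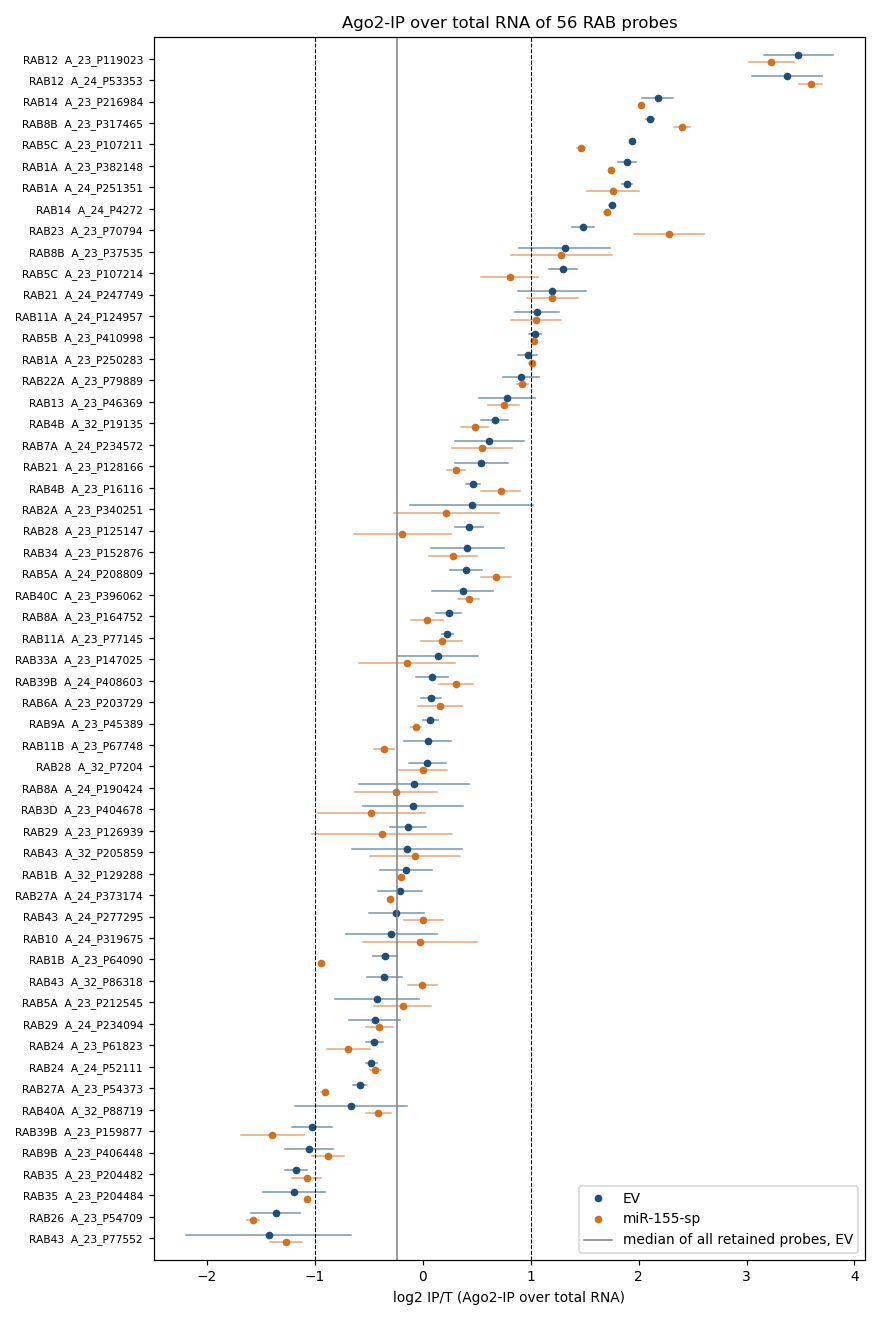
Log2 IP/T (x axis) of the 56 retained RAB probes (y axis, sorted by EV), with the mean of both dye orientations as a point and the single orientations as the ends of each line. Dashed lines mark an IP/T of 2 and 0.5. RAB12 lies apart at the top with a log2 IP/T above 3 on both probes in both cell populations, and RAB43, RAB26 and RAB35 probes lie at the bottom.

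Among the RABs of the Golgi and of traffic between the endoplasmic reticulum and the Golgi, RAB12 alone held the highest values in both cell populations. In EV-transduced cells this group also held the lowest, on a RAB43 probe detected in 4 channels. The median log2 IP/T of its 17 probes was 0.08 in EV-transduced cells, beside -0.24 for all retained probes. RAB12, placed here among the Golgi RABs and also known from recycling endosomes, had the highest IP/T of the family. On probe A_23_P119023 its log2 signal was 8.53 (Cy3) and 8.96 (Cy5) in EV total RNA and 12.12 and 12.32 in EV IP RNA, and 8.60 and 8.93 in miR-155-sp total RNA and 11.95 and 12.05 in miR-155-sp IP RNA. All IP values lay far above all T values. The IP/T was 11.2 in EV-transduced cells (13.9 with the IP labelled in Cy5, 8.94 with the dyes exchanged; pairs of values in parentheses keep this order) and 9.38 in sponge cells (10.9 and 8.11). The second RAB12 probe, A_24_P53353, had an IP/T of 10.4 in EV-transduced cells (13.0 and 8.29) and 12.1 in sponge cells (13.0 and 11.2). With normexp and quantile normalization the log2 IP/T in EV-transduced cells was lower, 2.53 on the first and 2.18 on the second probe.

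RAB1A and RAB1B, close paralogues that both act between the endoplasmic reticulum and the Golgi, differed. RAB1A probe A_23_P382148 had a log2 signal of 10.42 (Cy3) and 10.55 (Cy5) in EV total RNA and 12.37 and 12.40 in EV IP RNA. In sponge cells the signals were 10.43 and 10.44 in total RNA and 12.21 and 12.16 in IP RNA. The IP/T of the 3 RAB1A probes was 3.71 (A_23_P382148), 3.71 (A_24_P251351) and 1.96 (A_23_P250283) in EV-transduced cells, and 3.36, 3.39 and 2.01 in sponge cells. The 2 RAB1B probes stayed below 1, at 0.899 (A_32_P129288) and 0.784 (A_23_P64090) in EV-transduced cells and 0.872 and 0.520 in sponge cells. In every array the RAB1A probes were thus above both RAB1B probes, and cross-hybridization between paralogues was not tested.

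RAB2A, which also acts early in secretion, had an IP/T of 1.37 in EV-transduced cells, with 0.921 and 2.03 in the 2 orientations. RAB6A (A_23_P203729), a RAB of retrograde Golgi traffic, had 1.06, and RAB34 had 1.33. RAB33A had a log2 IP/T of 0.14 in EV-transduced cells and -0.15 in sponge cells. At the other end, RAB43 probe A_23_P77552 had an IP/T of 0.371 in EV-transduced cells (0.218 and 0.631) and 0.416 in sponge cells, but it was well above background in 4 channels only. The other 3 RAB43 probes lay between 0.782 and 0.906 in EV-transduced cells. RAB39B, a neuronal RAB linked to intellectual disability, gave 0.491 on A_23_P159877 (0.432 and 0.557) and 1.06 on A_24_P408603. RAB39B and RAB43 were the only genes among the 18 with several retained probes whose probes lay more than 1 apart in log2 IP/T in EV-transduced cells, while for 10 genes the probes were within 0.5.

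The early endosomal RABs had a median log2 IP/T of 0.60 over 12 probes in EV-transduced cells. Of these probes 4 were enriched (33.3%, beside 14.8% of all retained probes) and 0 had an IP/T of 0.5 or less (beside 12.9%). The 3 RAB5 paralogues, which drive fusion of early endosomes, were ordered RAB5C, RAB5B, RAB5A. RAB5C probe A_23_P107211 had a log2 signal of 8.77 (Cy3) and 8.90 (Cy5) in EV total RNA and 10.85 and 10.70 in EV IP RNA, an IP/T of 3.84 (3.81 and 3.86). Its second probe, A_23_P107214, had an IP/T of 2.46 (2.25 and 2.69). RAB5B had 2.05 (2.13 and 1.97), just above the limit of 2, and its log2 IP/T was 1.53 with the Cy3 and 0.55 with the Cy5 labellings alone. RAB5A was not enriched, at 1.32 (A_24_P208809) and 0.744 (A_23_P212545). The ratios of RAB5C and RAB5A did not overlap on any EV array. Those of the lower RAB5C probe and of RAB5B were closer, 2.25 against 2.13 in the first orientation and 2.69 against 1.97 in the other.

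RAB21, known for integrin traffic, had an IP/T of 2.29 on A_24_P247749 (2.84 and 1.85) and 1.46 on A_23_P128166 in EV-transduced cells. RAB22A, another early endosomal RAB, lay at 1.88 (1.67 and 2.11). RAB4B, which returns receptors from early endosomes to the surface, had 1.59 and 1.38 on its 2 probes. RAB24, linked to autophagy, was the lowest of this group at 0.733 and 0.719.

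Among the RABs of recycling and delivery to the plasma membrane, 5 of 13 probes were enriched in EV-transduced cells (38.5%, beside 14.8% of all retained probes) and 2 were at 0.5 or less (15.4%, beside 12.9%). RAB14, which works between recycling endosomes and the Golgi, had an IP/T of 4.52 in EV-transduced cells on A_23_P216984 (4.09 and 4.98) and of 4.07 in sponge cells (4.11 and 4.03). On A_24_P4272 the values were 3.37 and 3.27. On the first of these probes the log2 signals were 10.35 (Cy3) and 10.12 (Cy5) in EV total RNA, 12.44 and 12.38 in EV IP RNA, 10.16 and 10.15 in miR-155-sp total RNA, and 12.16 and 12.20 in miR-155-sp IP RNA. IP and T did not overlap in either cell population.

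RAB8B and RAB8A, which move cargo from the Golgi to the surface and to cilia, also differed. RAB8B had an IP/T of 4.31 (A_23_P317465, 4.20 and 4.42) and 2.48 (A_23_P37535, 3.33 and 1.85) in EV-transduced cells, and RAB8A had 1.18 and 0.944. In sponge cells RAB8B had 5.28 and 2.43, and RAB8A 1.03 and 0.843. The RAB8B probe A_23_P317465 was detected in 7 channels, and in miR-155-sp total RNA in 1 labelling only. RAB11A, the main RAB of recycling endosomes, had 2.08 on A_24_P124957 (2.40 and 1.81) and 1.17 on A_23_P77145, and its paralogue RAB11B had 1.03. RAB13, known from epithelial junctions, had 1.72, and RAB10 (A_24_P319675), which takes glucose transporter vesicles to the surface, had 0.816.

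RAB35, which acts in fast recycling and in cytokinesis, was low on both probes. A_23_P204482 had a log2 signal of 13.43 (Cy3) and 13.65 (Cy5) in EV total RNA and 12.38 and 12.36 in EV IP RNA. In sponge cells it had 13.52 and 13.56 in total and 12.35 and 12.57 in IP RNA. All IP values were below all T values, with an IP/T of 0.444 in EV-transduced cells and 0.474 in sponge cells. The second RAB35 probe, A_23_P204484, had 0.437 (0.358 and 0.533) and 0.475 (0.475 and 0.474).

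**Figure D2:**
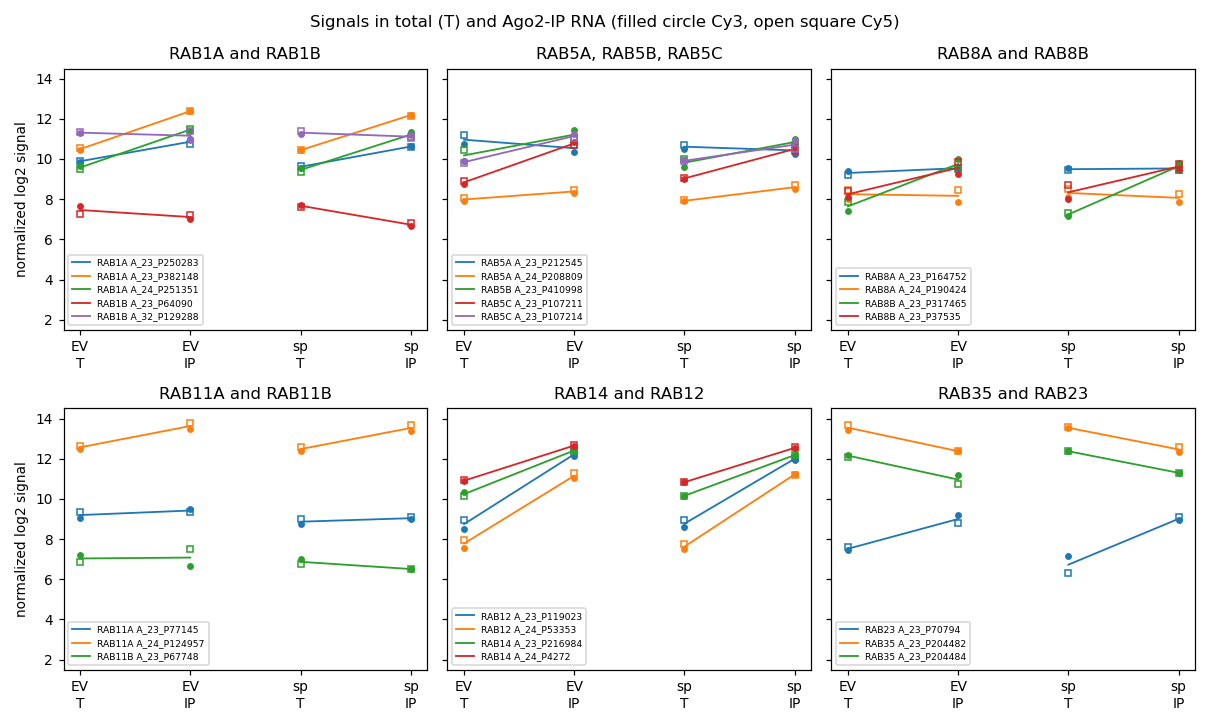
Normalized log2 signal (y axis) in total (T) and Ago2-IP RNA of EV and miR-155-sp (sp) cells for the retained probes of selected RAB genes. Filled circles are Cy3 and open squares Cy5 labellings, and lines join the means of T and IP within a cell population. Lines rise for RAB1A, RAB5C, RAB8B, RAB12 and RAB14, fall for RAB35, and are nearly flat for RAB8A.

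Of the 5 retained probes of RABs of late endosomes and lysosomes, none was enriched in EV-transduced cells (beside 14.8% of all retained probes) or in sponge cells (beside 15.6%). RAB7A, which directs fusion with lysosomes, had an IP/T of 1.53 in EV-transduced cells (1.23 and 1.91), and RAB9A, which retrieves receptors from late endosomes to the Golgi, had 1.05. RAB9B had 0.480 (0.412 and 0.560) but was well above background in 5 channels only. RAB29, a RAB of the Golgi and lysosomes, had 0.911 and 0.734. The 4 probes of RABs of regulated secretion all lay below 1 in EV-transduced cells. Of all retained probes 39.3% lay above 1, so most of the array was below 1 as well. RAB26, which acts at secretory granules, was the only RAB probe with an IP/T of 0.5 or less on all 4 arrays (1.79% of the RAB probes, beside 5.09% of all retained probes), at 0.389 in EV-transduced cells (0.333 and 0.455) and 0.336 in sponge cells (0.350 and 0.323). It was detected in 6 channels. RAB27A, needed for secretion of lysosome-related granules, had 0.667 and 0.864, and RAB3D, detected in 4 channels only, had 0.938. Under normexp with quantile normalization the log2 IP/T of RAB26 and RAB9B in EV-transduced cells moved to within 0.5 of 0.

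Of the other members, RAB23, a negative regulator of Hedgehog signalling, had an IP/T of 2.80 in EV-transduced cells (log2 1.38 and 1.59) and 4.86 in sponge cells (log2 1.95 and 2.61). The RAB23 probe was detected in 7 channels, and in miR-155-sp total RNA in 1 labelling only. With normexp and loess its log2 IP/T was 0.58 and 0.47, below enrichment in both. RAB28, a ciliary RAB, lay at 1.34 and 1.03. RAB40A and RAB40C, which carry a SOCS box and serve ubiquitin ligases, lay at 0.631 and 1.29.

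The second comparison asks how the IP/T of RAB transcripts differed in cells carrying the sponge, in which capture of miR-155 was not measured by these arrays. The changes were small. No RAB probe changed by 2-fold in either direction, beside 0.698% (lower) and 0.748% (higher) of all retained probes. The change of log2 IP/T (miR-155-sp minus EV) had a median of -0.04 for the RAB probes and -0.00 for all retained probes, and with a common median these were 0.03 and 0.06. The median size of the change was 0.18, against a median SD of 0.16 between the dye orientations, and the 2 orientations went in opposite directions for 26 of the 56 probes. Of the others, 19 were lower with the sponge in both orientations (33.9%, beside 30.3%) and 11 were higher in both (19.6%, beside 30.6%). This split of 19 to 11 became 27 to 8 of 64 probes under normexp with loess and Aquantile, and 14 to 12 of 55 with a common median. The matching shares of all retained probes were not computed, so these splits cannot be set beside the array.

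At a change of at least 1.25-fold with both orientations in 1 direction, a limit chosen after the values were seen, 8 RAB probes were lower (14.3%, beside 10.5%) and 2 were higher (3.57%, beside 12.2%). The lower ones were those of RAB1B, RAB3D, RAB11B, RAB27A, RAB28 and RAB39B with 1 probe each and RAB5C with both of its probes. The higher ones were of RAB23 and RAB43.

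**Figure D3:**
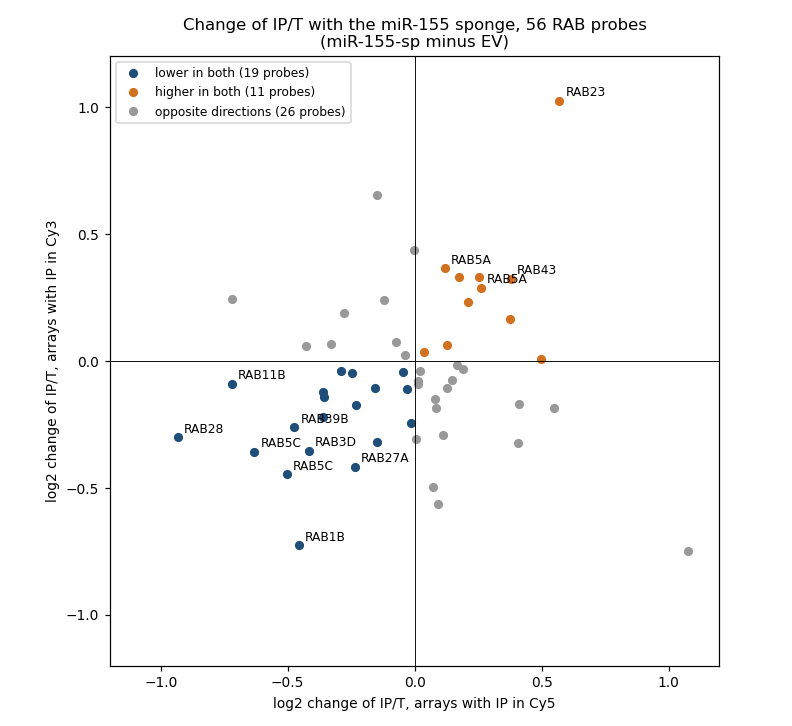
Change of log2 IP/T, miR-155-sp minus EV, for the 56 RAB probes, with IP in Cy5 on the x axis and IP in Cy3 on the y axis. Points are blue where both orientations fell (19 probes), orange where both rose (11) and grey where they differed (26). The 2 RAB5C probes lie together at the lower left and the 2 RAB5A probes at the upper right, while RAB23 lies farthest up.

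RAB5C was the only gene with several probes of which more than 1 passed that limit. On A_23_P107211 the IP signal was 10.85 (Cy3) and 10.70 (Cy5) in EV-transduced cells and 10.57 and 10.42 in sponge cells, while the total signal was 8.77 and 8.90 in EV-transduced cells and higher by 0.22 and 0.17 in sponge cells. Both IP labellings were lower and both T labellings higher with the sponge. The IP/T went from 3.84 to 2.76 (2.69 and 2.83), a log2 change of -0.48 that was -0.50 and -0.45 in the 2 orientations. On A_23_P107214 it went from 2.46 to 1.75 (1.45 and 2.10), a log2 change of -0.49 that was -0.63 and -0.36. The direction held on both probes under all alternatives run, with changes between -0.50 and -0.11 on the first probe and between -0.67 and -0.32 on the second.

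The paralogues of RAB5C did not move with it. RAB5A was higher with the sponge on both probes and in both orientations, with log2 changes of IP/T of 0.28 on A_24_P208809 (0.26 and 0.29) and 0.24 on A_23_P212545 (0.12 and 0.37), and stayed so under all alternatives run. These changes are below 1.25-fold. On A_23_P212545 the larger change was in total RNA, which was lower by a log2 of -0.24 in Cy3 and -0.47 in Cy5, and on A_24_P208809 in the IP fraction, higher by 0.18 and 0.24. For RAB5B the IP/T was 2.05 in EV and 2.04 in sponge cells, although both its fractions were lower with the sponge, by -0.36 in total and -0.37 in IP on the log2 scale.

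RAB28 and RAB1B had larger single values but on 1 of 2 probes each. RAB28 probe A_23_P125147, well above background in 5 channels, had a log2 change of -0.62 (-0.93 and -0.30), and its second probe -0.04. RAB1B probe A_23_P64090, in 7 channels, had -0.59 (-0.46 and -0.73), and its second probe -0.04. The change of RAB11B was -0.40 (-0.72 and -0.09), and that of RAB39B -0.37 on A_23_P159877, whereas A_24_P408603 gave 0.22. For both RAB11B and RAB39B A_23_P159877 the direction was lost with the Cy3 labellings alone.

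RAB23 showed the largest rise, a log2 change of 0.80 (0.57 and 1.02). Its log2 signal was 7.43 (Cy3) and 7.60 (Cy5) in EV total RNA but 7.13 and 6.32 in miR-155-sp total RNA, and 9.18 and 8.82 in EV IP RNA and 8.93 and 9.09 in miR-155-sp IP RNA. The IP values of the 2 cell populations overlapped and the T values did not, and the low Cy5 value in miR-155-sp total RNA carried most of the difference. That Cy5 value was not well above background, and the probe was detected in 7 channels. The change was -0.11 under normexp with loess and Aquantile. RAB43 was higher with the sponge on all 4 of its probes in the mean, from 0.07 to 0.35, and on A_32_P86318 by 0.35 (0.38 and 0.32).

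Total RNA of the family differed little between the cell populations, with a median log2 change of -0.03 (0.00 over all retained probes). In both labellings 20 RAB probes were lower (35.7%, beside 32.9%) and 13 higher (23.2%, beside 32.4%). The probes at least 1.25-fold lower with the sponge in both labellings were those of RAB5A, RAB5B, RAB8B, RAB11A, RAB23 and RAB39B with 1 probe each (6 of 56, beside 8.60%). RAB8B A_23_P317465 was lower by -0.28 (Cy3) and -0.52 (Cy5), and RAB39B A_24_P408603 by -0.29 and -0.44. For this RAB8B probe 1 of the 2 labellings of miR-155-sp total RNA was not well above background. RAB27A (A_23_P54373) was the only one higher by this rule (1.79%, beside 6.64%), by 0.27 and 0.56, while its IP signal changed by 0.09 in the mean. In the IP fraction 10 RAB probes were lower by this rule (17.9%, beside 8.64%) and 2 were higher (3.57%, beside 9.22%), those of RAB35 and RAB43. The lower ones included RAB5C on A_23_P107214 (-0.27 in Cy3 and -0.58 in Cy5) and RAB9A (-0.38 and -0.32), whose total RNA was also lower (-0.16 and -0.27).

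**Figure D4:**
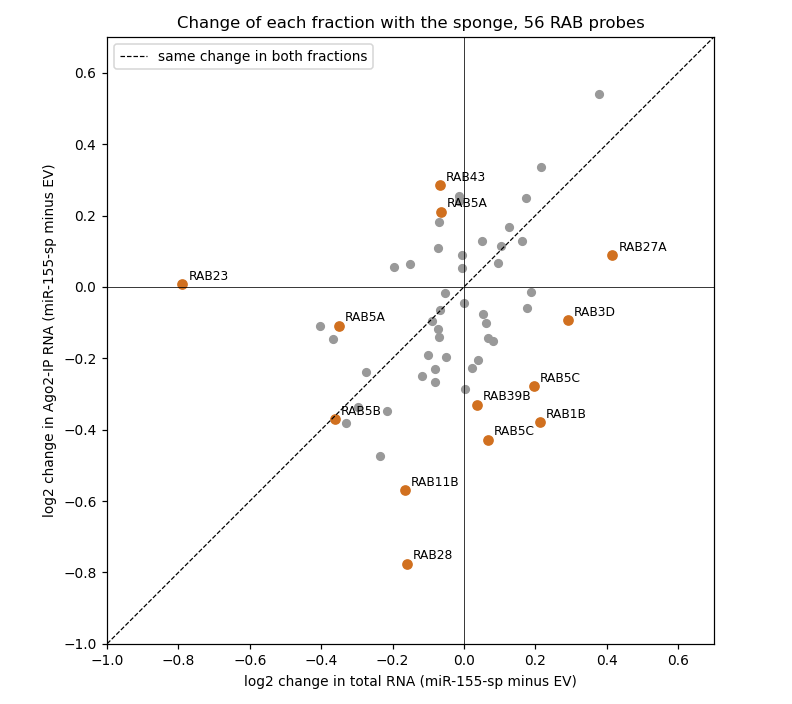
Log2 change with the sponge (miR-155-sp minus EV) in total RNA (x axis) and in Ago2-IP RNA (y axis), each the mean of 2 labellings, for the 56 RAB probes. Named orange points are probes whose IP/T changed by at least 1.25-fold with both orientations in 1 direction, with RAB5A and RAB5B added, and on the dashed line both fractions changed alike. RAB5C and RAB1B lie below the line with higher total and lower IP signals, RAB5B lies on it, and RAB23 lies far left with a change of 0.01 in IP RNA.

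The other genes of the RAB cycle were taken from lists of exchange factors, GTPase-activating proteins, lipidation and extraction genes, and effectors. Of their 156 retained probes for 110 genes, 33 (21.2%, beside 14.8% of all retained probes) were enriched in EV-transduced cells and 12 were at 0.5 or less (7.69%, beside 12.9%), and the median log2 IP/T was 0.02. Of the related small GTPases, the ARF family gave 6 of 27 enriched probes (22.2%) and a median log2 IP/T of -0.22, and the RAS family gave 5 of 22 (22.7%) and a median of 0.12. The share of enriched probes among the RAB genes (25%) thus lay near those of the related lists.

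Of 44 exchange factor probes 5 were enriched in EV-transduced cells (11.4%, beside the same 14.8%), led among probes detected in all 8 channels by DENND6A, an exchange factor of RAB14, with an IP/T of 5.71 (5.39 and 6.05), and TRAPPC1, a subunit of the TRAPP complexes that act on RAB1, with 4.85. The lowest of such probes were TRAPPC3 (0.418), another TRAPP subunit, and HPS1 (0.453), part of the exchange factor of RAB32 and RAB38. Of 40 probes of GTPase-activating proteins 7 were enriched (17.5%). TBC1D9 had 23.3 in EV-transduced cells (18.1 and 29.9) and 23.7 in sponge cells. In EV-transduced cells TBC1D20, which acts on RAB1, had 7.28 on A_24_P392958 and 3.98 on A_23_P354193. TBC1D1 was low on 2 probes, at 0.371 and 0.388.

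Of 16 probes of lipidation and extraction genes 6 were enriched (37.5%, beside 14.8% of all retained probes) and 0 were at 0.5 or less in EV-transduced cells, with a median log2 IP/T of 0.71. Among those detected in all 8 channels, RABGGTB, the catalytic beta subunit of the RAB geranylgeranyl transferase, was highest at 5.25 and 3.31, and YIPF2 (0.614) and RABAC1 (0.639) were lowest. Of 56 effector probes 15 were enriched (26.8%) and 8 were at 0.5 or less (14.3%, beside 12.9%). NECAP1 (11.5) and ATG16L1 (11.2), which binds RAB33B in autophagy, were highest among those detected in all 8 channels, and the RAB5 effector RABEP1 (0.348, A_32_P142013) and the RAB27 effector SYTL3 (0.354) the lowest. Over the 156 probes the sponge changed log2 IP/T by a median of 0.01.

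**Figure D5:**
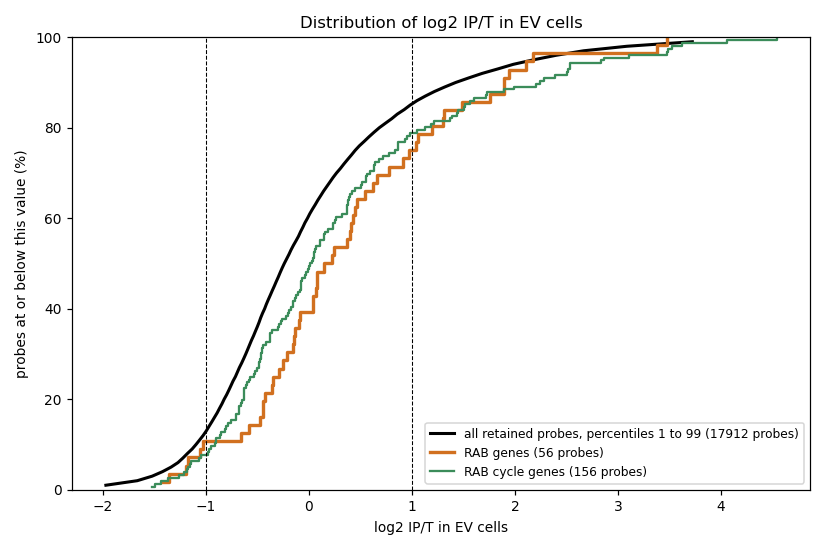
Share of probes (y axis, %) at or below each log2 IP/T in EV-transduced cells (x axis) for RAB genes, for the 4 RAB cycle lists together, and for all retained probes. Dashed lines mark an IP/T of 0.5 and 2. The curve of the RAB genes lies right of that of all probes over most of the range, with a median of 0.18 against -0.24, and 25% of its probes lie beyond an IP/T of 2.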

How the data were processed

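Two-color Agilent 44k human whole genome arrays were measured for 4 RNA samples of KM-H2 cells, 1 per group. Per the file headers, the authors obtained the deposited intensity values with Feature Extraction 10.7.3.1 (the submitters' processing notes name 10.5.1.1), with background subtraction, spatial detrending and dye normalization within each array. Of each deposited file only the channel with the sample's own RNA was used. The authors also deposited log2 values, quantile-normalized and filtered per the study's methods, which differed from the values computed here by a median of 0.00056.

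Control spots and spots flagged as outliers were removed, and saturation was not seen on gene spots. Log2 processed signals were averaged per probe and quantile-normalized over 8 channels. Probes well above background in at least 4 channels and within 2-fold between labellings of each sample were retained (17912), and labellings were averaged. Log2 IP/T is the mean IP minus the mean T value. Such ratios are relative to all probes, and signals near background compress them.

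RefSeq and Ensembl identifiers of the probes were matched to RefSeq (GRCh38.p14). Of 41000 probes 23958 matched. Because the array design used hg18, gene coordinates are not given. One gene of the family is not reported here. Probe sequences were not used here.

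The RAB genes and gene lists were chosen with earlier results of these data known. Probes were named that passed an IP/T of 2 or 0.5, that had the 5 highest or lowest IP/T among probes bright in all channels, the 5 largest changes of IP/T with both orientations in 1 direction, the 3 largest changes or the 5 highest signals in total RNA, that belonged to paralogue sets, or whose gene's probes differed by over 1 in log2 IP/T. Of other lists the 2 highest and 2 lowest bright probes were named. Alternatives concerned normalization, background correction (normexp, offset 50), filters, averaging, and single labellings or dye orientations. The code was tested on simulated data for IP/T in EV cells, where 200 of 200 probes set 4-fold higher among 40981 were recovered at an IP/T of 2. Python 3.11.15, numpy 2.4.6, pandas 2.3.3, matplotlib 3.10.9, and limma 3.58.1 in R 4.3.3 were used.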

Additional observations from a re-analysis of the deposited data

How the results depend on the processing

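No paired analysis was possible because each group is 1 sample and its 2 replicates are dye labellings of the same RNA. The numbers of RAB probes enriched 2-fold or more (EV and miR-155-sp), 14 each, fell to 9 and 8 under normexp with quantile normalization and to 8 and 7 under normexp with loess and Aquantile. The numbers at 0.5 or less, 6 and 5, became 1 and 2 under the former and 0 and 0 under the latter. Among probes detected in all 8 channels they were 3 and 3. Over all retained probes the share at 0.5 or less in EV cells, 12.9%, also fell under normexp. It was 2.63% with quantile normalization and 1.65% with loess and Aquantile, and 11.9% among probes detected in all 8 channels. With IP in Cy3 alone 3 RAB probes were at 0.5 or less in EV cells, beside 15.2% of all retained probes. Counted by gene, 35 genes replace 56 probes. Of these, 7 and 7 were enriched (20.0% each, beside 15.5% and 16.2% of all named genes). Depleted genes numbered 3 and 2 (8.57% and 5.71%, beside 9.66% and 10.9%). With the sponge 17 genes were lower and 5 higher in both orientations, for which no share of all genes was computed. Under loess and Aquantile 10 of the 14 probes kept an IP/T of 2, but both RAB12 probes then failed the 2-fold limit between labellings. The cause of the other differences was not tested.

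The median log2 IP/T in EV and miR-155-sp cells was 0.073 and 0.020 with a common median, 0.39 and 0.31 among probes detected in all 8 channels, and 0.31 and 0.27 with IP in Cy3 alone. In miR-155-sp cells it was 0.22 by the deposited values and 0.17 within 1.5-fold between labellings. With 1 labelling alone it ranged from 0.23 to 0.32 in EV and from 0.022 to 0.14 in miR-155-sp cells. The median change of IP/T, -0.04, was 0.032 with a common median, and that of total RNA, -0.03, was -0.080 there and -0.065 without the filter on agreement. Over all retained probes a common median gave a change of IP/T of 0.055.

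Of the named probes with a change of at least 1.25-fold, the sign turned for RAB23 (-0.11) and RAB3D (0.0049) under normexp with loess and Aquantile, and for RAB39B A_23_P159877 (0.057) and RAB11B (0.044) with Cy3 labellings alone. No IP/T past 2-fold changed side of 1 under the alternatives run. Leaving out probes below background in both labellings of a sample, an alternative chosen after the data were seen, removed none of the 56 RAB probes. It could therefore not change their counts and says nothing about how stable these are.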
